A study of Homo sapiens with 6 samples.

Results

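The layout described here is that of 2 histone marks, H3K27ac and H3K27me3, in H69M, a small cell lung cancer (SCLC) line derived from the parental line H69 and used in a study of SCLC cells that differ in their visibility to immune cells. All peaks of the H69M_K27Ac and H69M_K27Me3 libraries on chromosomes 1 to 22 and X were taken, with no choice by value. They numbered 88944, namely 51091 H3K27ac peaks and 37853 H3K27me3 peaks, of 148837 peaks on these chromosomes in the 4 antibody libraries of the series. Chromatin was precipitated with the antibody ab4729 against H3K27ac or with clone C36B1 against H3K27me3, from cells with no further treatment named in the labels. Each mark came from 1 library with no replicate, so no p-value is given, and the values describe these libraries. No expression data of H69M were used, so the line's identity was not checked by its markers.

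Both marks sit on the same amino acid, lysine 27 of histone H3, and an acetylated lysine cannot carry the methyl mark as well. H3K27ac is placed by the acetyltransferases p300 and CBP and is found at active promoters and enhancers. H3K27me3 is placed by Polycomb repressive complex 2 and is known for broad domains over silent developmental regulators. A site with both marks can therefore hold neighbouring nucleosomes, the 2 copies of H3 in a nucleosome, different alleles or different cells, and a peak list does not tell these apart.

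The marks were laid out in unlike pieces. H3K27ac covered 76.8 Mb in peaks with a median width of 1149 bp (quartiles 740.5 and 1892 bp), whereas H3K27me3 covered 7.96 Mb in peaks with a median width of 156 bp (129 and 211 bp). The peak score deposited with the lists starts at 50, and its definition is not given. Under a score of 100 lay 27.7% of the H3K27ac peaks and 81.9% of the H3K27me3 peaks. A score of 3100, where the listed scores pile up, was reached by 6023 H3K27ac peaks and 10 H3K27me3 peaks. Read depth is unknown, so the ratio of the covered lengths (9.65) is one of called peaks, not of the marks' amounts in the cell.

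The first question was how far the marks lay from each other. An H3K27me3 peak lay a median of 54.01 kb from the nearest H3K27ac peak (95% interval of the median 53.2 to 55.02 kb), with quartiles of 19.02 and 125 kb, measured from edge to edge. The next H3K27me3 peak lay a median of 0.655 kb away. From an H3K27ac peak the nearest H3K27me3 peak was a median of 256 kb away (251 to 259.8 kb, quartiles 79.4 and 703 kb), against 2.94 kb to the next H3K27ac peak. Thus, by these medians, called peaks of each mark lay within kilobases of their own mark, and the other mark lay farther away. Of the H3K27me3 peaks 89.6% (33899 peaks) were nearer to their own mark than to the other, and of the H3K27ac peaks 92.7% (47344 peaks). Pieces of a mark that lie close together shorten the distance to the own mark wherever the other mark lies. No distance from DNA in general was set beside these values, so they do not show whether the marks avoid each other.

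H3K27ac within 10 kb was found for 16.3% of the H3K27me3 peaks (6154 peaks, exact 95% binomial interval 15.9 to 16.6%), and H3K27ac within 100 kb for 68.95% (26100 peaks). In the other direction 6.22% of the H3K27ac peaks (3177 peaks, 6.01 to 6.43%) had H3K27me3 within 10 kb and 28.96% within 100 kb (14795 peaks). With only peaks scoring 100 or more of both marks, the share of H3K27ac peaks with H3K27me3 within 10 kb was 1.77% and their median distance was 743 kb. More than 1 Mb from any H3K27me3 lay 18.4% of the H3K27ac peaks (9415 peaks), and the farthest was 12.1 Mb away. Of the H3K27me3 peaks, 559 (1.48%) were that far from H3K27ac. Every chromosome has a largest gap without any peak. It holds the centromere on some chromosomes but not on all. The gaps chrX:25362936-29679801 and chr13:81281945-83876128, for example, lie away from it. Of the 559 peaks, 466 lay no more than 2 Mb from such a gap, and 226 lay in the single bin from 47 to 48 Mb on chromosome 8. The intervals cover counting error only and treat neighbouring peaks as independent, which they are not.

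**Figure D1:**
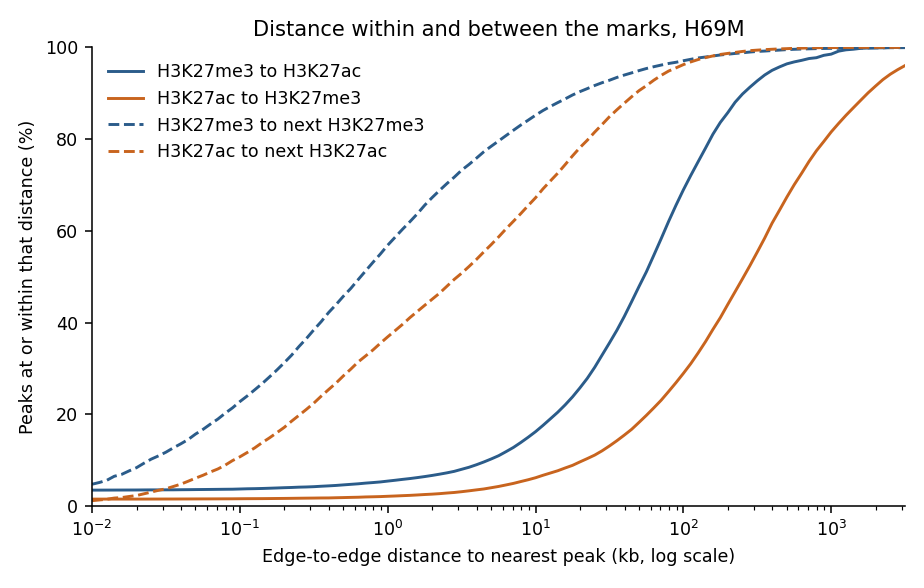
Cumulative share of peaks (y axis, percent) against the edge-to-edge distance to the nearest peak (x axis, kb, log scale). Solid lines give the distance to the other mark and dashed lines the distance to the next peak of the same mark; the dashed lines rise far to the left of the solid ones, with medians of 0.655 and 2.94 kb against 54.01 and 256 kb.

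Below a score of 3100 the distance varied less with the score of the H3K27me3 peaks than with that of the H3K27ac peaks. The median from H3K27me3 to H3K27ac was 53.4 kb for the 31006 peaks scoring under 100 and 64.6 kb for those scoring from 1000 to under 3100. The 10 H3K27me3 peaks at 3100 lay a median of 335 kb away, and none of them was within 10 kb of H3K27ac, where a count of 0 of 10 allows a share of up to 30.8%. That bound treats the 10 as independent, but neighbouring 100 kb bins from 86.7 and 86.8 Mb on chromosome 8 both reached this score. H3K27ac peaks scoring under 100 lay a median of 313 kb from H3K27me3, and those at 3100 or above lay 182.03 kb from it, so high scoring H3K27ac peaks were the nearer ones at this scale.

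The second question was whether each mark thinned out near the other. To take account of the different amount of DNA at each distance, the share of base pairs covered by H3K27me3 was taken inside H3K27ac peaks and in shells around them. The reference is the span from the first to the last peak of each chromosome without its largest peak-free stretch, 2835 Mb in all, of which H3K27me3 covered 0.281% and H3K27ac 2.71%. H3K27me3 covered 0.408% of the DNA inside H3K27ac peaks, 0.226% at 0 to 1 kb, 0.154% at 1 to 2 kb and 0.146% at 2 to 5 kb from them. It then rose to 0.203% at 10 to 20 kb, 0.292% at 20 to 50 kb and 0.396% at 50 to 100 kb, before falling to 0.154% at 500 to 1000 kb. The profile thus had a high value inside the peaks, a trough from 1 to 5 kb outside them, and a second high between 50 and 200 kb.

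Counting H3K27me3 peaks by their midpoints gave the same trough, with 6.79 per Mb at 1 to 2 kb against 13.3 per Mb over the whole span. By this count the density inside H3K27ac, 15.9 per Mb, was below the 18.7 per Mb at 50 to 100 kb. Beyond 1000 kb the share of 0.443% rested mostly on peaks beside the peak-free stretches. Of the 120.5 kb of H3K27me3 there, 18.8 kb remained without peaks within 2 Mb of the stretches. The DNA beside the stretches was kept in the reference, so the resulting 0.0691% is not the share of DNA away from them. The trough was also present without those peaks, again over unchanged DNA, with 0.142% at 1 to 2 kb against 0.368% inside H3K27ac and 0.368% at 50 to 100 kb.

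**Figure D2:**
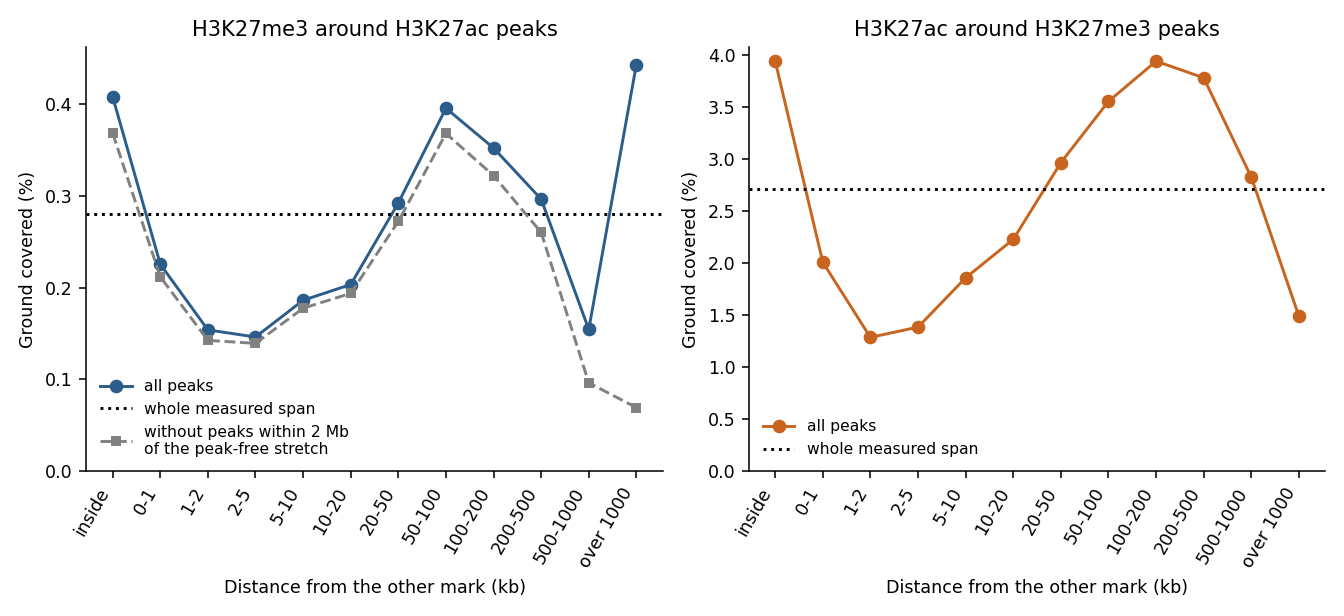
Share of DNA covered by one mark (y axis, percent) inside peaks of the other mark and in shells at growing distance from them (x axis, kb), with H3K27me3 around H3K27ac on the left and H3K27ac around H3K27me3 on the right. The dotted line is the share over the whole measured span. Both solid profiles are high inside peaks, dip at 1 to 5 kb and are high again between 50 and 200 kb. The grey line leaves out H3K27me3 peaks near the peak-free stretches but keeps the DNA there.

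The reverse profile had the same form. H3K27ac covered 3.94% of the DNA inside H3K27me3 peaks, 2.00% at 0 to 1 kb, 1.28% at 1 to 2 kb and 1.38% at 2 to 5 kb from them. The share was 2.23% at 10 to 20 kb, reached 3.94% at 100 to 200 kb and was 1.49% beyond 1000 kb. Around the H3K27ac peaks scoring 1000 or more, H3K27me3 covered 0.260% inside, 0.0930% at 0 to 1 kb, 0.0911% at 1 to 2 kb and 0.451% at 50 to 100 kb. The high scoring H3K27ac peaks therefore had a share inside them near that of the whole span, and a trough deeper than that around all H3K27ac peaks. H3K27me3 peaks scoring 300 or more covered 0.103% of the DNA inside all H3K27ac peaks against 0.0383% of the whole span, a ratio of 2.69, while the ratio for all H3K27me3 peaks was 1.45.

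The third question was the scale at which the marks were segregated. The span was divided into bins of 7 sizes from 10 kb to 1 Mb, and the number of bins with both marks was divided by the number given by the product of the marks' shares of bins. A ratio of 1 is what unrelated placing at these shares would give, and a value below 1 means fewer shared bins. At 10 kb, 41024 of 283594 bins held H3K27ac, 16622 held H3K27me3 and 1782 held both, which is 3.19% of the marked bins (3.05 to 3.34%) and a ratio of 0.741. The ratio was 0.781 at 20 kb, 0.853 at 50 kb, 0.923 at 100 kb, 0.974 at 200 kb, 0.999 at 500 kb and 1.005 at 1 Mb. Both marks were present in 17.3% of the marked bins of 100 kb (3234 bins, 16.7 to 17.8%) and in 58.9% of those of 1 Mb (1653 bins, 57.1 to 60.8%). With only peaks scoring 100 or more these shares were 1.07% at 10 kb, 6.48% at 100 kb and 33.0% at 1 Mb, and with at least 500 bp of a mark per bin they were 1.08%, 8.45% and 43.1%. The ratio approached 1 as bins grew, so fewer shared bins than the product were found at 100 kb and below, while at 1 Mb 57.5% of all bins held both.

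At 1 Mb the ratio has little room, because 94.4% of the bins held H3K27ac and 60.6% held H3K27me3. With these shares it can only lie between 0.961 and 1.059, against 0.821 to 1.16 at 500 kb and 0 to 6.91 at 10 kb. The covered lengths give a further view. Spearman's rho between the H3K27ac and H3K27me3 lengths was -0.027 across the 283594 bins of 10 kb, -0.041 across 28402 bins of 100 kb, 0.12 across 5711 bins of 500 kb and 0.25 across 2876 bins of 1 Mb. Bins share their library and differ in gene density and mappability, so these are descriptions. The sign changed from slightly negative at 10 and 100 kb to positive at 500 kb and 1 Mb.

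The 1 Mb bins were also sorted into 4 groups of 719 bins by their H3K27ac length. H3K27me3 was present in 46.7% of the bins of the lowest group (43.04 to 50.5%), 55.6% of the second, 64.0% of the third and 76.1% of the highest (72.8 to 79.2%). The mean H3K27me3 length per bin was 1.71, 2.05, 2.68 and 4.62 kb in the same order. Megabases rich in H3K27ac were thus also those with more H3K27me3. When the product of shares was taken inside each 1 Mb bin and summed, to hold the megabase fixed, the 10 kb ratio was 0.614 in place of 0.741. When it was taken inside each 100 kb bin the ratio was 0.944.

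**Figure D3:**
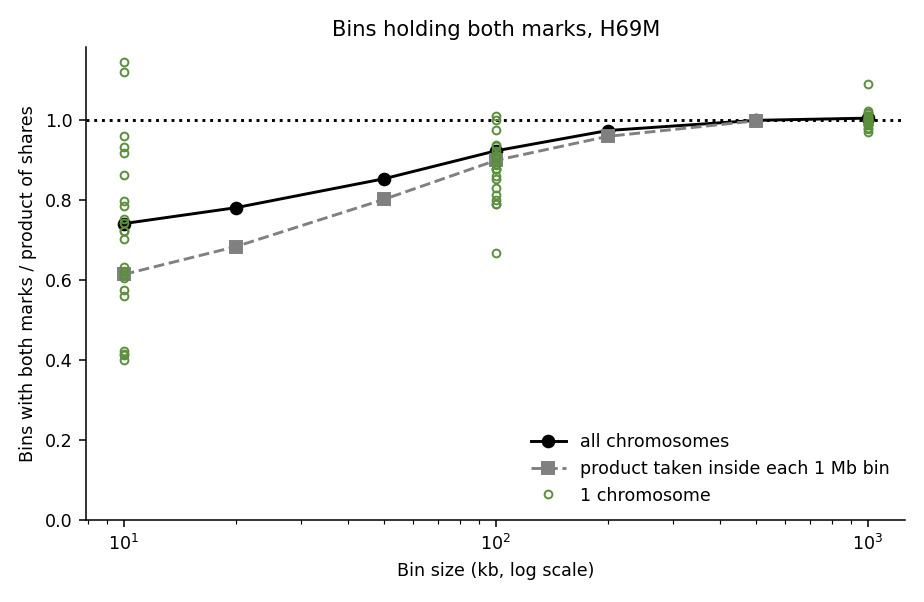
Number of bins with both marks divided by the product of the marks' shares (y axis) against bin size (x axis, kb, log scale). Black points are all chromosomes together, from 0.741 at 10 kb to 1.005 at 1 Mb, grey squares take the product inside each 1 Mb bin (0.614 at 10 kb), and open circles are single chromosomes.

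Chromosomes differed in this ratio. At 10 kb it was below 1 on 21 of 23 chromosomes, with a median of 0.721. It was lowest on chromosome 15 (0.400), chromosome 16 (0.412), chromosome 19 (0.415) and chromosome 22 (0.422). Chromosome 21 (1.14) and chromosome X (1.12) had more shared bins of 10 kb than the product of their shares. At 100 kb 22 of 23 chromosomes were below 1, from 0.667 on chromosome 15 to 1.01 on chromosome 2. At 1 Mb 13 of 23 were below 1, and the range was 0.971 to 1.089.

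Chromosome 19, known for its gene density and its zinc finger gene clusters, was the richest in H3K27me3. It held 5003 H3K27me3 peaks over 1023 kb, or 1.84% of its span against 0.281% for all chromosomes, and its H3K27ac peaks lay a median of 47.3 kb from H3K27me3, the shortest such distance of the 23 chromosomes. Chromosome 4 had the longest median in both directions, with 114.6 kb from H3K27me3 to H3K27ac and 962 kb from H3K27ac to H3K27me3. Chromosome 21 had the shortest median from H3K27me3 to H3K27ac, 24.5 kb, and 36 of its 687 H3K27ac peaks overlapped H3K27me3.

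The peaks of both marks were also read in order along each chromosome. Of 88921 pairs of neighbouring peaks, 8816 were of different marks (9.91%, 9.72 to 10.1%), whereas the product of the marks' shares of peaks gives 45.3%. That product treats every peak as placed singly, and pieces of a mark that lie close together lower the share of changes wherever the other mark lies. With pieces of a mark closer than 1000 bp joined, the share of changes was 13.6%. The peaks fell into 8839 runs of a single mark. Runs of 10 or more H3K27me3 peaks numbered 870 and held 74.4% of all H3K27me3 peaks, with a median length of 166 kb. Runs of 10 or more H3K27ac peaks numbered 1209 and held 83.8% of the H3K27ac peaks, with a median length of 625 kb. The gap between neighbours had a median of 1.47 kb between H3K27me3 peaks, 9.69 kb between H3K27ac peaks and 19.1 kb where the mark changed. Runs of a single peak made up 33.4% of the H3K27me3 runs and 35.6% of the H3K27ac runs, but only 3.90% and 3.08% of the peaks.

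The longest stretches of H3K27ac with no H3K27me3 peak inside were chr12:69753062-93862128 (24.1 Mb, 222 peaks), chrX:77358785-100075857 (22.7 Mb, 56 peaks), chr4:123653760-144481203 (20.8 Mb, 241 peaks) and chr4:164414819-184427872 (20.01 Mb, 272 peaks). A further one, on chromosome 9, was 1.21 Mb long without the peak-free stretch it spans. By number of peaks chr2:48338203-65664637 (253 peaks) and chr5:80911769-94514174 (235 peaks) also ranked among the first 5. H3K27ac was sparse in them, with 234 kb covered in the 24.1 Mb run on chromosome 12.

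The 5 longest H3K27me3 runs in base pairs all spanned the peak-free stretch of their chromosome and were 0.203 to 4.19 Mb long without it. By number of peaks the first 5 were chr8:43101378-48116421 (347 peaks, also across that stretch), chr16:31986703-34825928 (341 peaks), chr13:110457002-111249587 (333 peaks), chr7:56264005-63497793 (276 peaks, across the stretch) and chr8:6701225-8038240 (202 peaks). The chromosome 13 run covered 78.1 kb of its 793 kb. By textbook position it holds COL4A1 and COL4A2, which encode the collagen chains of basement membranes. The second run on chromosome 8 lies in the region of the defensin genes, which encode antimicrobial peptides.

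At 1 Mb the bins with most H3K27ac and no H3K27me3 were chromosome 17 from 55 to 56 Mb (237 kb in 78 peaks), chromosome 11 from 12 to 13 Mb (178 kb), chromosome 17 from 17 to 18 Mb (149 kb), chromosome 12 from 122 to 123 Mb (133 kb) and chromosome 17 from 57 to 58 Mb (111.8 kb). Those with most H3K27me3 and no H3K27ac were chromosome 8 from 47 to 48 Mb (69.2 kb in 326 peaks), chromosome 4 from 49 to 50 Mb (51.6 kb), chromosome 16 from 33 to 34 Mb (40.4 kb), chromosome 8 from 7 to 8 Mb (39.996 kb in 173 peaks) and chromosome 16 from 32 to 33 Mb (30.7 kb). Of these 5, the bin from 7 to 8 Mb on chromosome 8 belongs to the defensin run. The other bin on chromosome 8 begins just past the peak-free stretch of that chromosome, which ends at 46938300. The bin on chromosome 4 holds the start of such a stretch, at 49620592. Those on chromosome 16 lie in the run chr16:31986703-34825928, which ends shortly before the stretch starting at 35043473.

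Other megabases were rich in both marks, with overlap on either side of the 3.50% found for all H3K27me3 peaks. Chromosome 7 from 1 to 2 Mb held 62.6 kb of H3K27ac and 70.4 kb of H3K27me3, and 1 of its 323 H3K27me3 peaks overlapped H3K27ac. Chromosome 19 from 1 to 2 Mb held 138 kb and 61.3 kb, with 3 of 245 overlapping, and chromosome 19 from 48 to 49 Mb held 100.7 kb and 53.99 kb, with 1 of 199. Chromosome 1 from 228 to 229 Mb (51.2 and 54.2 kb, 4 of 82) and chromosome 14 from 23 to 24 Mb (83.5 and 50.3 kb, 10 of 236) completed the 5 bins with the largest lesser mark. The share was below 3.50% in the first 3 of these bins and above it in the other 2, of which that on chromosome 1 also holds the longest overlap of the lists.

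At 100 kb the bins with most H3K27ac and no H3K27me3 started at 46.4 Mb on chromosome 22 (75.5 kb covered), at 46.6 Mb (69.7 kb) and 46 Mb (68.9 kb) on chromosome 17, at 55.6 Mb on chromosome 17 (60.7 kb) and at 5.8 Mb on chromosome 19 (59.2 kb). Those with most H3K27me3 and no H3K27ac started at 86.7 Mb (65.1 kb) and 86.8 Mb (38.7 kb) on chromosome 8, where peaks reached a score of 3100, and at 8.8 Mb (43.1 kb), 48.4 Mb (34.5 kb) and 1.7 Mb (33.05 kb) on chromosome 19. The 2 last lie in the megabases named above for holding both marks, so there whole blocks of 100 kb carried H3K27me3 alone. The most mixed bin of 100 kb started at 161.4 Mb on chromosome 1, with 10.5 kb of H3K27ac and 25.6 kb of H3K27me3, and 10 of its 29 H3K27me3 peaks overlapped H3K27ac. The other 4 started at 21.5 Mb (14.4 and 9.53 kb, 0 of 32 overlapping) and 2.8 Mb (10.7 and 8.54 kb, 2 of 39) on chromosome 16, at 54.3 Mb on chromosome 12 (21.7 and 8.57 kb, 1 of 37) and at 0.5 Mb on chromosome 7 (11.3 and 8.35 kb, 7 of 37).

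The fourth question concerned the sites with both marks. Overlap by 1 bp or more was found for 795 H3K27ac peaks (1.56%, 1.45 to 1.67%) and 1325 H3K27me3 peaks (3.50%, 3.32 to 3.69%), in 1328 pairs. With only peaks scoring 100 or more, 0.593% of the H3K27ac peaks overlapped H3K27me3. The doubly covered length was 313 kb, against 215 kb from the product of the marks' shares of the span, a ratio of 1.45. At the level of base pairs the marks thus coincided more often than that product, while in bins of 10 kb they did so less often. Of the 1328 pairs, 95 lay within 2 Mb of a peak-free stretch.

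Most sites with both were small H3K27me3 peaks inside larger H3K27ac peaks. The H3K27me3 peak lay wholly inside the H3K27ac peak in 1063 of the pairs (80.05%, 77.8 to 82.2%). Of these 1063, 660 had their midpoint in the central 50% of the H3K27ac peak (62.1%, 59.1 to 65.02%), and 40 and 35 lay in the outermost 10% at its left and right end. Peaks with some width cannot have their midpoint at the very edge of a peak that holds them, which lowers the outer counts. A single H3K27me3 peak was found in 477 of the 795 H3K27ac peaks, and 318 held 2 or more, with 10 as the highest number. That highest case, singled out after its value was seen, was the H3K27ac peak chr17:50235010-50238247 with a score of 544, whose 10 H3K27me3 peaks scored 51.4 to 142.

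Overlap was more frequent at higher H3K27me3 scores, although the intervals of the 2 highest of the following classes overlap. The share overlapping H3K27ac was 2.98% of H3K27me3 peaks scoring under 100 (2.79 to 3.17%), 5.33% of those from 100 to under 300 (4.77 to 5.94%), 8.53% of those from 300 to under 1000 (6.75 to 10.6%) and 13.8% of those from 1000 to under 3100 (16 peaks, 8.09 to 21.4%). High scoring H3K27me3 peaks were also wider, with a median of 2045 bp in the last class against 144 bp in the first, so they had more base pairs with which to meet H3K27ac. Among H3K27ac peaks the share was 1.16% under 100 (0.989 to 1.35%), 1.63% from 100 (1.42 to 1.85%), 2.20% from 300 (1.92 to 2.51%), 1.85% from 1000 (1.56 to 2.18%) and 0.930% at 3100 or above (0.703 to 1.21%). The intervals of the lowest and the top score class overlap each other and lie below those of the 3 classes between them. Peaks at the top score were the widest (median 2705 bp). H3K27ac peaks with H3K27me3 had a median width of 1351 bp and a median score of 313, against 1145 bp and 236 for those without.

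By the rule that H3K27ac covers 50% or more of the H3K27me3 peak, the 10 sites with the highest H3K27me3 score spread over 7 chromosomes. The first was the H3K27me3 peak chr8:53852257-53854174 (score 1894), of which 59.7% was covered by an H3K27ac peak with a score of 427. The next, chr18:19750916-19752537 (score 1872), lies by textbook position at GATA6, a transcription factor of endoderm and heart development, and met H3K27ac with a score of 299 over 51.4% of its length. At chr21:36261794-36263024 (score 1180) the H3K27me3 peak lay wholly inside an H3K27ac peak scoring 3100 that held 6 H3K27me3 peaks. Its textbook position is within RUNX1, a transcription factor of blood formation. At chr21:47517042-47519311 (score 1192) the marks had nearly the same borders, with 99.2% of the H3K27me3 peak covered by H3K27ac (score 2007), at the position of the collagen gene COL6A2.

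The other 6 sites were chr9:66454653-66458779 (score 1796), chr22:17516941-17518799 (1480), chr1:148927723-148930532 (1310), chr2:133109977-133111477 (1283), chr21:11168474-11170156 (1126.4) and chr1:228744523-228749039 (1126.3). The chromosome 9 site, the last named chromosome 21 site and the GATA6 site lay within 2 Mb of a peak-free stretch. The last site had the longest overlap of all, 4517 bp, but its H3K27ac peak of 7553 bp scored only 72.3. It lies by textbook position in the tandem array of 5S ribosomal RNA genes, where short reads cannot be placed on a single copy. The 5 longest overlaps also included chr1:228749106-228753466 in the same H3K27ac peak, the chromosome 1 site at 148927723 (2593 bp), the COL6A2 site (2252 bp) and the chromosome 9 site (2116 bp).

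H3K27me3 of 300 or more met H3K27ac of 1000 or more in 28 of the 1328 pairs (2.11%), where the product of these classes' shares of all peaks is 0.693%. Both scores were under 100 in 145 pairs (10.9%), where that product is 22.7%. The product takes no account of width, and higher scoring peaks of both marks were wider, so the differences are not read as a relation of the scores. With 1 library per mark, and without read counts, no pair has a replicate check.

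The windows of 1 Mb that hold genes of 6 lists were then read for both marks. The lists name developmental regulators, neuroendocrine and SCLC genes, mesenchymal genes, immune genes, clustered or imprinted genes and housekeeping genes, in 69 windows or pairs of neighbouring windows. Genes were placed by their textbook position on hg19 and every window also holds other genes, so the values are those of windows. Over all 2876 bins of 1 Mb, 57.5% held both marks and 12.7% held more than 5 kb of H3K27me3. The median bin held 17.1 kb of H3K27ac and 0.265 kb of H3K27me3.

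Of the 23 developmental windows 17 held both marks and 11 held more than 5 kb of H3K27me3 per Mb, with medians of 28.1 kb of H3K27ac and 4.56 kb of H3K27me3. The remaining 6 windows held H3K27ac and no H3K27me3 peak, among them those of HOXD, PAX6, NKX2-1, FOXA1 and IRX3. These genes encode transcription factors of body patterning and of brain, eye and lung development, of which NKX2-1 is known as a lung and SCLC lineage factor. The window of FOXF1, a factor of the mesenchyme of lung and gut, was the reverse case with 1 H3K27ac peak (1.28 kb) and 126 H3K27me3 peaks (20.3 kb). GATA4, a heart and endoderm factor, had 37.8 kb of H3K27me3, the most of the list, beside 26.8 kb of H3K27ac.

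The HOX windows differed in how the marks lay to each other. In the HOXA window, which holds genes of anterior to posterior patterning, 17 H3K27ac peaks ran over chr7:27129476-27239903 and covered 45.3 kb, 6 of them at a score of 3100. The first H3K27me3 peak began 4.85 kb beyond the last of them, and 25 H3K27me3 peaks then covered 6.11 kb of chr7:27244751-27291845 with no overlap. By textbook position the HOXA genes lie within the H3K27ac stretch and end with HOXA13. The H3K27me3 stretch thus lies beside the gene cluster and not in it. In the HOXB window H3K27ac covered 237 kb, a length below which 99.9% of all bins lay. Of its 75 H3K27me3 peaks 73 lay in chr17:46750434-46855948, where they covered 19.6 kb, and none overlapped H3K27ac. In the HOXC window 5 of 93 H3K27me3 peaks overlapped H3K27ac and 9 bins of 10 kb held both marks. The 100 kb bin with the highest scoring H3K27me3 peak held 37 H3K27me3 peaks over chr12:54304688-54364881, and 3 of the 10 H3K27ac peaks of the bin lay between the ends of that stretch and the other 7 beyond it. That highest scoring peak, chr12:54332875-54333799 (score 784), overlapped an H3K27ac peak with a score of 102.05. The bounds of these stretches were chosen after the peaks had been seen.

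In the 17 developmental windows with H3K27me3 the distance from the highest scoring H3K27me3 peak to H3K27ac ran from 0 to 175.2 kb, with a median of 51.2 kb. It was over 100 kb in 7 windows and 10 kb or less in 4, those of HOXC and GATA4 (0 kb), SIM2 (0.204 kb) and GATA6 (1.42 kb). That peak of the window of WT1, a kidney and gonad factor, lay 148 kb from H3K27ac, that of OLIG2, a factor of glial and motor neuron fate, 175.2 kb, that of EN2, a factor of midbrain patterning, 111.7 kb, and that of PAX2, a kidney factor, 160.0 kb. In the GATA4 window the highest scoring H3K27me3 peak, chr8:11057486-11058601, lay away from the gene's textbook position, which begins in the 100 kb bin from 11.5 Mb. The bins from 11.4 and 11.5 Mb held 8.34 and 17.6 kb of H3K27me3 and no H3K27ac. In the GATA6 window 31 H3K27me3 peaks covered 12.2 kb of chr18:19700604-19797613, and the only H3K27ac peak in that stretch, chr18:19749169-19751749 (score 299), overlapped 4 of them.

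**Figure D4:**
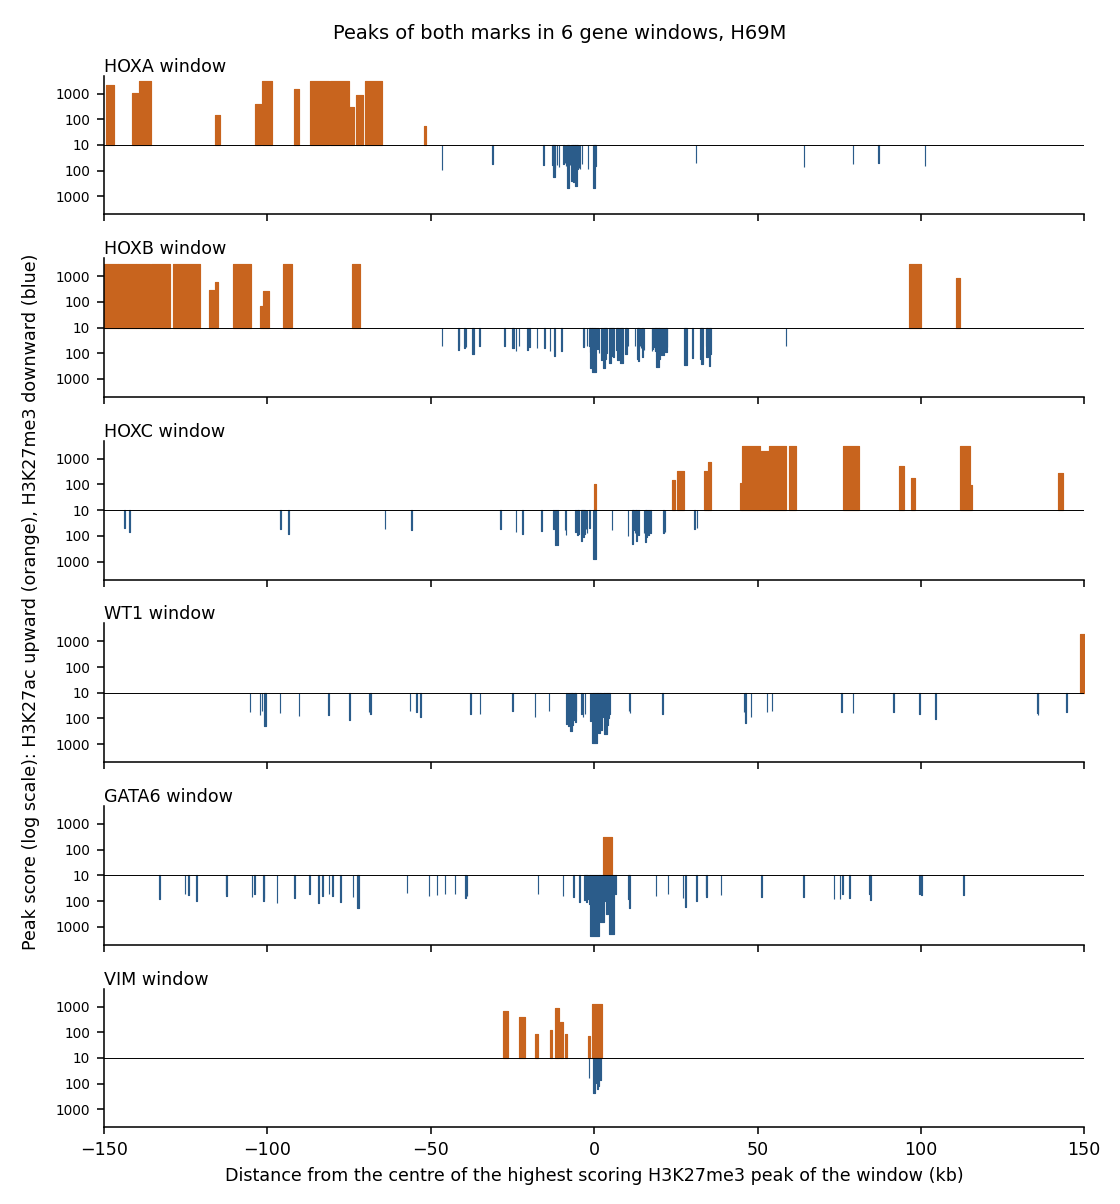
Peaks of H3K27ac (orange, upward) and H3K27me3 (blue, downward) in 6 gene windows, drawn to scale by width, with the listed score as height (log scale from 10) and distance from the centre of the window's highest scoring H3K27me3 peak on the x axis (kb). The marks lie apart in the stretches shown of the HOXA, HOXB and WT1 windows, while in the VIM window all H3K27me3 peaks shown lie within H3K27ac peaks and in the GATA6 window 4 overlap the only H3K27ac peak.

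All 13 neuroendocrine and SCLC windows held both marks, and 3 had more than 5 kb of H3K27me3. The window of NEUROD1, a transcription factor of neuroendocrine SCLC, had 1 H3K27me3 peak (0.148 kb) beside 38.9 kb of H3K27ac. INSM1, a neuroendocrine repressor, lay in a window with 146 kb of H3K27ac in 76 peaks, more than 99.5% of all bins, and 0.956 kb of H3K27me3. The window of MYC had 1 H3K27me3 peak, that of MYCN 3 and that of MYCL 8. The 3 windows above 5 kb were those of DLL3, a Notch ligand (35.1 kb of H3K27me3 in 177 peaks, 92.7 kb of H3K27ac), SYP, which encodes synaptophysin (11.6 and 21.9 kb), and POU2F3, the tuft cell factor (8.76 and 11.7 kb). By textbook position DLL3 lies in the 100 kb bin from 39.9 Mb, with 14.8 kb of H3K27ac and no H3K27me3. SYP lies in that from 49 Mb on chromosome X, with 14.8 kb of H3K27ac and 0.317 kb of H3K27me3. Most H3K27me3 of both windows thus lay in other 100 kb bins than the named gene. In the window of YAP1, a Hippo pathway coactivator, 4 of 14 H3K27me3 peaks overlapped H3K27ac, the highest scoring one (chr11:101981823-101982047) among them.

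The mesenchymal windows had the largest share of overlapping H3K27me3 peaks. In 8 windows (CAV1 and MET share 1) 22 of 166 H3K27me3 peaks overlapped H3K27ac (13.3%), against 3.50% of all H3K27me3 peaks and 1.98 to 4.25% in the other lists. In the window of VIM, which encodes the intermediate filament vimentin, 7 of 8 H3K27me3 peaks did. All 7 lay in chr10:17268887-17272587, 6 of them in the H3K27ac peak chr10:17269938-17272961 with a score of 1222. In the window of ZEB1, a repressor of epithelial genes, 4 of 7 overlapped, in that of CAV1 and MET 6 of 13, and in that of AXL, a receptor tyrosine kinase, 5 of 136. The H3K27me3 of the ZEB1 window lay in the 100 kb bins from 31, 31.3 and 31.4 Mb. By textbook position ZEB1 lies farther on, in bins from 31.6 Mb, with no H3K27me3. MET lies in the bins from 116.3 and 116.4 Mb, also with no H3K27me3, and CAV1 begins in that from 116.1 Mb (1.13 kb). In the window of SNAI2 none of 2 overlapped. The windows of TWIST1, CD44 and FN1 held H3K27ac and no H3K27me3 peak. Neighbouring pieces of H3K27me3 count singly in the share of 13.3%, and its overlaps all came from the windows of VIM, ZEB1, AXL, and CAV1 with MET. It is thus not a trait of every window of the list. The list was chosen with earlier results of these data known and its windows are few, so its share is a description.

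Of the 9 immune windows 8 held both marks and 4 had more than 5 kb of H3K27me3. Among these 4 are the neighbouring MHC windows of HLA-E (83.5 kb of H3K27ac and 11.955 kb of H3K27me3) and HLA-B (77.9 and 11.3 kb), which encode class I molecules, and of the peptide transporter TAP1 (33.2 and 9.41 kb). The H3K27me3 peaks that overlapped H3K27ac in these 3 windows numbered 3 of 74, 2 of 66 and 1 of 60. The window of B2M, the class I light chain, had 42.7 and 4.34 kb. Those of NLRC5, IRF1 and CD274 had 4, 1 and 1 H3K27me3 peaks. The 100 kb bin from 45 Mb, which holds B2M by textbook position, had 5.82 kb of H3K27ac and no H3K27me3. The bins of the MHC genes, placed in the same way, differed from it. That of HLA-B, from 31.3 Mb, had 0.482 kb of H3K27ac and 5.16 kb of H3K27me3, the most H3K27me3 of its window. That of HLA-E, from 30.4 Mb, had 3.04 and 4.78 kb, also the most H3K27me3 of its window. That of TAP1, from 32.8 Mb, had 7.67 and 1.75 kb.

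All 10 clustered or imprinted windows held both marks, and 5 had more than 5 kb of H3K27me3. The window shared by IGF2 and CDKN1C, imprinted growth regulators, had 10 of 70 H3K27me3 peaks overlapping H3K27ac and 12 bins of 10 kb with both marks. The window of MEG3, an imprinted noncoding RNA gene, had 13.5 kb of H3K27me3, and 1 of its 64 peaks overlapped. For the protocadherins, cell surface proteins of neurons, 1 of 38 did. By textbook position MEG3 lies in the 100 kb bins from 101.2 and 101.3 Mb, with 15.1 and 7.26 kb of H3K27ac and no H3K27me3. The bin from 101.9 Mb of that window held 6.06 kb of H3K27me3. The 6 housekeeping windows all held both marks as well, and 1 of them, that of GAPDH, had more than 5 kb of H3K27me3 (6.98 kb). Their median was 73.2 kb of H3K27ac and 3.42 kb of H3K27me3, so H3K27me3 was also found in megabases named for genes that every cell uses. The 100 kb bin from 6.6 Mb, which holds GAPDH by textbook position, had 14.9 kb of H3K27ac and no H3K27me3.

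**Figure D5:**
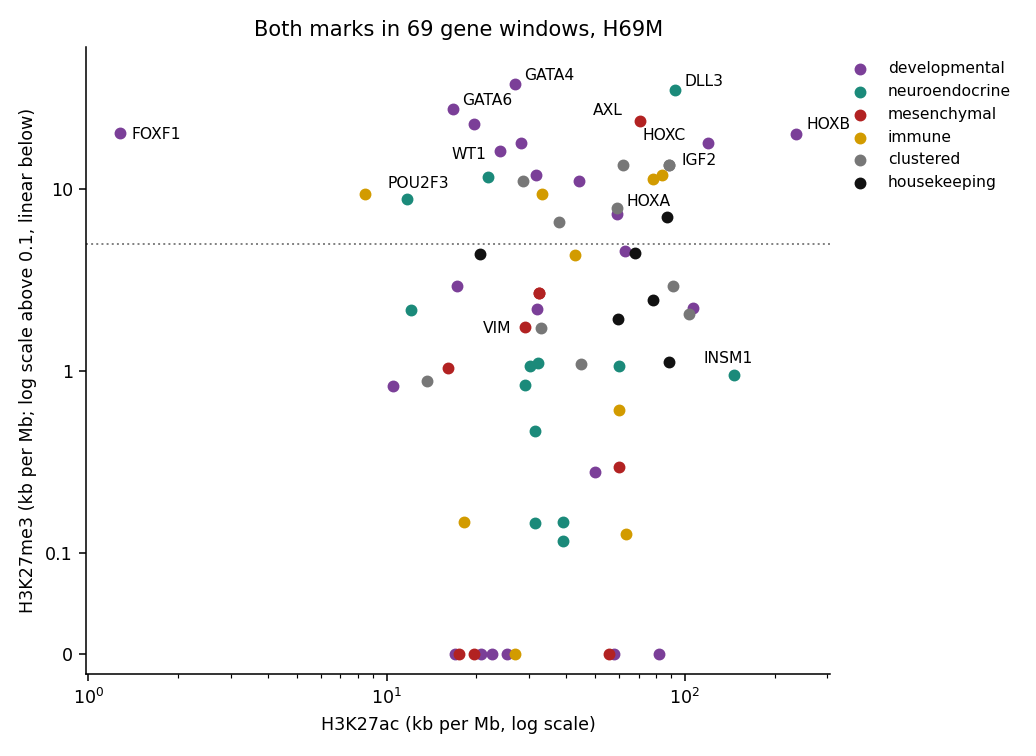
H3K27me3 (y axis, kb per Mb, log scale above 0.1 and linear below) against H3K27ac (x axis, kb per Mb, log scale) in the 69 gene windows, coloured by list, with the dotted line at 5 kb. Developmental windows lie both at 0 and up to 37.8 kb of H3K27me3, and the HOXB window has most H3K27ac (237 kb).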

How the data were processed

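H69M chromatin was precipitated for H3K27ac and for H3K27me3, and 1 library per mark was sequenced from paired ends, per the labels' protocols. Bowtie2, SAMtools 0.1.19 and the build hg19 are named in the submitters' processing notes. The deposited peak lists give chromosome, start, end, a name with the word MACS and a score with no definition, and whether the input served as control is not given in the sources used here. Ranks and filters within a list use the authors' score. Depth is unknown, and the number and width of called peaks move with it.

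From these lists, overlaps (1 bp or more), edge distances, shells, bins and runs were computed with Python 3.11.15, numpy 2.4.6, pandas 2.3.3 and SciPy 1.17.1, and tested on simulated data. Shares carry exact (Clopper-Pearson) 95% intervals and medians order-statistic intervals, both for counting error only. Coordinates are 1-based. The gene tables at hand lie on another assembly, so peaks were not matched to genes.

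The members and lists were chosen with earlier results of these data known. Named are the 10 sites with both marks of highest H3K27me3 score (H3K27ac over 50% or more of it), the 5 longest overlaps, per bin size the 5 bins with most of one mark and none of the other or with the largest lesser mark, the 5 longest runs, and the gene windows, of which a few are not reported here by name.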

Additional observations from a re-analysis of the deposited data

Results flagged for a closer look

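Peaks were also called outside the sequences compared. On sequences of hg19 other than chromosomes 1 to 22, X and Y, the H69M lists had 59 H3K27ac peaks and 607 H3K27me3 peaks. Of the 59 H3K27ac peaks 17 overlapped H3K27me3 (28.8%, exact 95% interval 17.8 to 42.1%), against 1.56% on chromosomes 1 to 22 and X. These sequences were left out of every comparison.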

How the results depend on the processing

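Of 86 combinations of a result and a listed alternative, 48 stayed within the 95% interval of the reported value and 38 did not. The ratio of bins with both marks to the product of shares stayed below 1 at 10 kb and at 100 kb under all 9 alternatives, and above 1 at 1 Mb under all 9. At 1 Mb the reported ratio was 1.005 with an interval of 0.973 to 1.036, which includes 1, so no direction is read there. Each other result is a share or a median with no direction. Values that left the interval follow.

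With peaks scoring 100 or more, H3K27ac lay within 10 kb of 14.4% of H3K27me3 peaks and H3K27me3 within 10 kb of 1.77% of H3K27ac peaks. Overlap was 0.593% of H3K27ac and 4.73% of H3K27me3 peaks. Bins with both were 1.07%, 6.48% and 33.0% of marked bins at 10 kb, 100 kb and 1 Mb, and the 10 kb ratio was 0.855. Neighbours of different marks were 6.96%, and the medians were 65.2 kb from H3K27me3 and 743 kb from H3K27ac. By construction this leaves fewer peaks, above all of H3K27me3.

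With equal numbers of peaks the shares within 10 kb were 13.5% (H3K27me3) and 6.54% (H3K27ac), overlap 2.97% and 1.70%, bins of 10 kb with both 2.99%, changing neighbours 10.6%, and the medians 61.3 and 237 kb. With pieces of a mark joined across less than 1000 bp, the shares within 10 kb were 15.8% and 6.97%, overlap of H3K27ac 1.90%, changing neighbours 13.6% and the median from H3K27ac 241 kb. Between midpoints the shares within 10 kb were 15.4% and 5.86%. With 50% or more of the H3K27me3 peak covered, overlap was 3.22%.

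Leaving out peaks within 2 Mb of the peak-free stretches gave 16.8% within 10 kb, a median of 51.4 kb from H3K27me3 and ratios of 0.781, 0.968 and 1.04 at 10 kb, 100 kb and 1 Mb. The bins emptied in this way stayed among the bins counted, and more empty bins raise the ratio by construction. With the stretches included, the ratio was 0.959 at 100 kb and 1.04 at 1 Mb. By construction this adds only empty bins, which raises the ratio at every bin size. With at least 500 bp of a mark per bin, bins with both were 1.08%, 8.45% and 43.1%, and the 10 kb ratio was 0.819.

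An alternative chosen after seeing the data left out the 50 bins of 1 Mb with most H3K27me3. It gave 17.5% and 5.62% within 10 kb, overlap of 4.03% (H3K27me3) and 1.42% (H3K27ac), 2.96% and 16.5% of bins with both at 10 and 100 kb, 10.4% changing neighbours and medians of 52.6 and 267 kb. Shifting bins by 0.5 of a bin and leaving out chromosome X moved no value beyond its interval. Except where the construction is named, the cause was not tested. With 1 library per mark no library could be left out, and unknown depth limits what an empty bin means.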
